A study of Homo sapiens with 8 samples.

Results

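ADAM genes encode membrane-anchored proteins with a disintegrin and a metalloprotease domain. They are described here in RNA of HCT116 cells, a human colorectal cancer line in which NUDT21 carries a degradation tag (dTAG). There are 10 ADAM genes in the set, of 78932 gene identifiers in the count tables. ADAM19 was chosen by its log2 fold change, among the largest decreases of the comparison below, and the other 9 are family members taken by name. All cells were given JTE-607, an inhibitor of the pre-mRNA cleavage nuclease CPSF73 (gene CPSF3). The 4 libraries of the control group came from tagged cells given DMSO and JTE-607, and 4 libraries came from tagged cells given dTAGV1 and JTE-607. dTAGV1 is a small molecule that sends tagged proteins to degradation, here the product of NUDT21, a subunit of cleavage factor Im (CFIm). The labels give no dose or time and do not say whether the tagged line is 1 clone or whether replicates are separate cultures, so p-values measure the spread between these libraries, which may be technical.

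An ADAM protease cuts other membrane proteins close to the cell surface and releases their outer part, a step called ectodomain shedding. ADAM10 and ADAM17 are the main sheddases of epithelial cells. ADAM10 cuts Notch receptors, E-cadherin and betacellulin, and ADAM17 cuts amphiregulin, TGF-alpha, HB-EGF and tumour necrosis factor. ADAM proteases are made with an inhibitory prodomain that furin-type convertases remove. ADAM10 needs tetraspanins of the TspanC8 group to leave the endoplasmic reticulum, and ADAM17 needs iRhom proteins. CFIm recognises UGUA motifs ahead of poly(A) sites, and its loss is known to move many genes from distal to proximal sites.

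Protease activity of an ADAM protein needs a zinc-binding site, whose codons are shown because members differ in it. The site was searched in frame, in the GENCODE 29 transcript with the longest coding region, as a histidine and a glutamate codon, 2 further codons, histidine, 2 codons, glycine, 2 codons and histidine. It was found in 8 of the 10 genes and not in ADAM22 and ADAM23, 2 adhesion proteins known to lack protease activity. Of 19495 protein-coding genes, 60 (0.308%) held a match. The 33-base coding runs of 6 members are given 5′ to 3′ on the strand of the gene, with the histidine, glutamate and glycine codons in capitals. Each lies in exon 11 of its transcript, except that of ADAM10, which spans exon 9 and a neighbouring exon.
ADAM19 (chr5:157505734-157505766, minus strand): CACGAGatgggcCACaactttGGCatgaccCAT
ADAM8 (chr10:133271880-133271912, minus strand): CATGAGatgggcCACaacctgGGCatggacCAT
ADAM12 (chr10:126094059-126094091, minus strand): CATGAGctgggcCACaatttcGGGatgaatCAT
ADAM15 (chr1:155056995-155057027, plus strand): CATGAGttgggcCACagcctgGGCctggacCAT
ADAM17 (chr2:9510078-9510110, minus strand): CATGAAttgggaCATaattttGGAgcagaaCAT
ADAM10 (chr15:58627881-58633225, minus strand, spliced): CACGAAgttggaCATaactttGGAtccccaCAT
Coordinates are those of GENCODE 29 on GRCh38.

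The libraries were made with a kit that primes on poly(A) tails and reads near the 3′ end. A transcript thus gives about 1 read whatever its length, and levels of different genes can be set side by side. Reads at a poly(A) site outside annotated exons are not counted to a gene. A count can thus change with the site used as well as with the amount of RNA, which were not told apart here. Libraries held 3447842 to 4291256 reads counted to genes on the sense strand. Levels are in CPM, counts in each 1000000 after TMM scaling. NUDT21, the tagged gene, had 104 to 139 counts with DMSO and 15 to 43 with dTAGV1, which checks the RNA and not the protein. Of 8 epithelial markers, 6 passed the filter on low counts, and VIL1 and CEACAM5 were at 0 to 3 counts. Of these 6, KRT18, KRT19 and CLDN4 were called lower, EPCAM was called higher, and KRT8 and CDH1 were not called. Over all tested genes 28.5% were called lower and 29.4% higher, 57.9% in all. The sum of the 8 epithelial markers, carried by KRT19 and KRT18, was 1683 to 1972 CPM with DMSO and 1353 to 1458 CPM with dTAGV1. Immune markers summed to at most 1.37 CPM in any library and endothelial markers to at most 3.20 CPM. Of the fibroblast markers only COL1A1 passed the filter, while COL3A1, DCN and LUM were at 0. The part of these marker differences in the results was not tested. In bulk RNA, fewer cells of a type and less RNA per cell cannot be told apart.

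Among the 10 genes, 7 passed the filter: ADAM19, ADAM15, ADAM17, ADAM10, ADAM9, ADAM22 and ADAM8. Apart from ADAM19, which is described without a test, 2 of the 6 tested genes rose with dTAGV1 (ADAM10 and ADAM9), 1 fell (ADAM15) and 3 were not called (quasi-likelihood test of edgeR over 12618 genes, Benjamini-Hochberg adjusted p under 0.05). Over all tested genes 29.4% were called higher and 28.5% lower, 57.9% in all, so a count of 3 called among 6 lies near the background. For 3 of the 6 genes the CPM values of the groups were fully apart, as they were for 50.9% of all tested genes. Their median log2 fold change was 0.08, beside 0.01 for all tested genes. The comparison asks which RNA levels differ when the degrader of the tagged protein is added to cells given JTE-607, and no library without JTE-607 was analysed here.

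**Figure D1:**
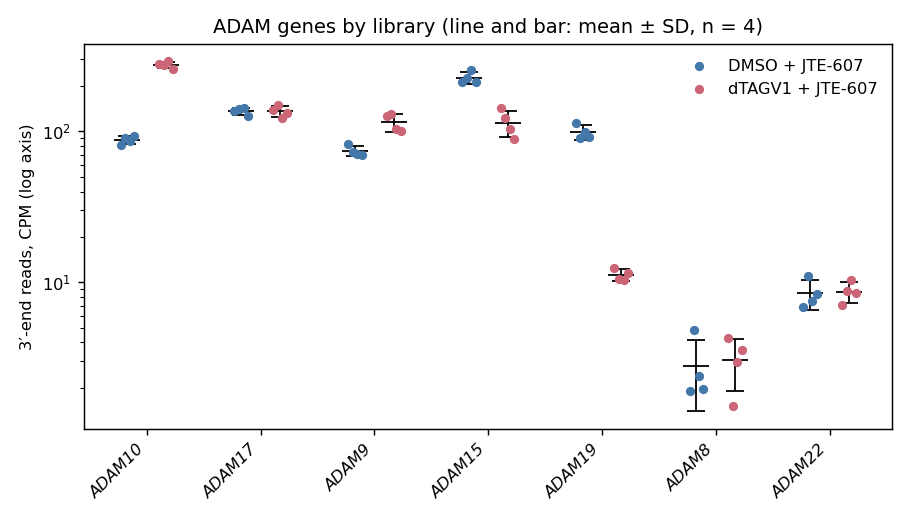
Level of the 7 ADAM genes that passed the filter, in CPM on a log axis, in each of the 4 libraries per group (points) with mean and SD (line and bar). ADAM19 is near 100 CPM with DMSO and near 11 CPM with dTAGV1, ADAM10 moves the other way from 88.0 to 277 CPM, and ADAM17 stays between 122 and 149 CPM in all 8 libraries.

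ADAM19 (ENSG00000135074, chr5:157395534-157575775, minus strand) encodes a protease known for roles in heart development and for cutting neuregulin. The 4 DMSO libraries held 419, 378, 374 and 370 ADAM19 reads and the 4 dTAGV1 libraries 44, 35, 35 and 49, in the order of replicates 1 to 4 used for all genes. All 4 dTAGV1 libraries thus lay far below the lowest DMSO library, and the replicates of each group lay close together. The mean went from 99.2 to 11.2 CPM, which is 8.78-fold lower, a log2 fold change of -3.13 ± 0.12 SE. These values chose the gene, so no test is given for it. Only 3 of the 9322 genes that averaged 10 CPM or more had a lower log2 fold change, as had 33 of all 12618 tested genes. In 16 alternative fits the log2 fold change stayed between -3.21 and -3.06. Rank and refits come from the libraries that chose the gene, so they are a description and no added support.

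Neighbouring genes did not show a decrease of this size. The nearest tested gene at lower coordinates, MED7 (a Mediator subunit), 236515 bases away, had a log2 fold change of 0.42 (SE 0.16; edgeR, Benjamini-Hochberg adjusted p = 0.0281). CYFIP2, which encodes a subunit of the WAVE actin regulator, lies on the other strand and shares 62 exon bases (chr5:157395534-157395595) with ADAM19 at the far end of its locus, in a transcript marked for nonsense-mediated decay. Its mean of 134 CPM with DMSO and 194 CPM with dTAGV1 was called higher (log2 fold change 0.54 ± 0.08 SE; edgeR, Benjamini-Hochberg adjusted p = 5.44e-06). THG1L, the nearest tested gene on the other side, 155422 bases away, fell by 0.34 on the log2 scale (SE 0.11; edgeR, Benjamini-Hochberg adjusted p = 0.00998). Reads on the strand opposite to ADAM19 were fewer with dTAGV1, 173 summed over the 4 DMSO libraries and 28 over the 4 dTAGV1 libraries. The count of ADAM19 irrespective of strand, which leaves out stretches shared by genes, did not exceed its sense count in any of the 8 libraries. The opposite-strand reads thus added no net count to it. The only shared exon stretch in the annotation read here is that with CYFIP2, at the annotated end of CYFIP2. Summed counts of CYFIP2 itself rose, from 2091 with DMSO to 2804 with dTAGV1. Whether the opposite-strand reads lay in that stretch was not tested.

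ADAM10 (ENSG00000137845, chr15:58588807-58749978, minus strand) had the largest increase among the members. Its counts were 297, 378, 322 and 379 with DMSO and 993, 916, 987 and 1092 with dTAGV1. The lowest dTAGV1 library held more than 2 times the counts of the highest DMSO library. ADAM10 rose from 88.0 ± 5.59 to 277 ± 13.7 CPM (SD, n = 4 per group), 3.14-fold, a log2 fold change of 1.65 ± 0.08 SE (edgeR, Benjamini-Hochberg adjusted p = 7.31e-15). Of those 9322 genes, 97 (1.04%) had a higher log2 fold change, as had 321 (2.54%) of all 12618 tested genes. The nearest tested gene on each side moved less. POLR2M, 806045 bases away, encodes a subunit of a form of RNA polymerase II and had a log2 fold change of 0.48. MINDY2, a deubiquitinase gene 21214 bases away, had one of -0.17. HSP90AB4P, a pseudogene inside ADAM10 on the same strand, had a log2 fold change of 0.50 that was not called (edgeR, Benjamini-Hochberg adjusted p = 0.163).

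ADAM9 (ENSG00000168615, chr8:38996869-39105144, plus strand), a widely expressed protease, rose as well. Counts were 303, 305, 266 and 282 with DMSO and 449, 433, 350 and 423 with dTAGV1, without overlap between the groups. ADAM9 went from 74.3 ± 5.91 to 115 ± 16.0 CPM (SD, n = 4 per group), with a log2 fold change at 0.63 ± 0.10 SE (edgeR, Benjamini-Hochberg adjusted p = 4.49e-06). TM2D2, which lies head to head with ADAM9 at a distance of 45 bases, had a log2 fold change of 0.36 (SE 0.09; edgeR, Benjamini-Hochberg adjusted p = 0.00195). GOLGA7, the nearest tested gene on the other side but 2385252 bases away, had one of -0.02 and was not called.

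ADAM15 (ENSG00000143537, chr1:155050566-155062775, plus strand), which carries an integrin-binding RGD motif in its disintegrin domain, was the most abundant member with DMSO and fell. Its counts were 778, 938, 956 and 855 with DMSO and 501, 408, 350 and 378 with dTAGV1. Every dTAGV1 library lay below every DMSO library, and dTAGV1 replicate 1 was the highest of its group. The level went from 226 ± 20.3 to 114 ± 23.0 CPM (SD, n = 4 per group), 1.98-fold lower, a log2 fold change of -0.99 ± 0.11 SE (edgeR, Benjamini-Hochberg adjusted p = 1.31e-06). Its nearest tested neighbours differed. ZBTB7B, which encodes a transcription factor and lies upstream on the same strand, had a log2 fold change of 0.11 that was not called (edgeR, Benjamini-Hochberg adjusted p = 0.742). EFNA4, an ephrin gene 956 bases downstream on the same strand, fell by 0.52 on the log2 scale (SE 0.22; edgeR, Benjamini-Hochberg adjusted p = 0.0447).

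ADAM17 (ENSG00000151694, chr2:9488486-9556732, minus strand) was not called in its total, while the place of its reads shifted. Sense-strand counts were 497, 586, 535 and 510 with DMSO and 489, 493, 415 and 561 with dTAGV1, and the groups overlapped. The level was 136 ± 7.54 CPM and 136 ± 11.2 CPM (SD, n = 4 per group). The log2 fold change was -0.01, with an approximate 95% interval of -0.17 to 0.15 (edgeR, Benjamini-Hochberg adjusted p = 0.926).

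The last 1257 bases of ADAM17 in GENCODE 29 (chr2:9488486-9489742, within the 1691-base 3′ UTR in exon 19) are also exon of IAH1, a hydrolase gene on the other strand. A further 66 bases in exon 15 are shared with IAH1, and 142 bases at the 5′ end with the lincRNA gene AC073195.1. A count made irrespective of strand gives no gene to reads in such shared stretches, so it holds the ADAM17 reads that lie outside them. This count was 128, 150, 110 and 118 with DMSO and 224, 228, 193 and 260 with dTAGV1. It was thus higher in every dTAGV1 library, by a log2 fold change of 0.92 ± 0.11 SE (edgeR on the counts irrespective of strand, Benjamini-Hochberg adjusted p = 5.35e-08 over 12832 genes, of which 28.6% were called higher). Reads on the ADAM17 strand within exons of IAH1 moved the other way. They were 380, 451, 446 and 411 with DMSO and 296, 292, 248 and 333 with dTAGV1, a log2 fold change of -0.56 ± 0.10 SE (edgeR on opposite-strand counts, Benjamini-Hochberg adjusted p = 2.85e-05 over 3324 genes, of which 24.5% were called lower).

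As a share of the sense-strand counts of ADAM17, the counts irrespective of strand were 20.6% to 25.8% with DMSO and 45.8% to 46.5% with dTAGV1. The means were 23.8% ± 2.45 and 46.2% ± 0.299 (SD, n = 4 per group), a difference of 22.5 percentage points (2-sided exact permutation test p = 0.0286, the smallest that 4 against 4 can give, on a measure chosen after seeing the data). The count irrespective of strand also holds reads on the strand opposite to ADAM17 outside the shared stretches. Taking away all opposite-strand counts of ADAM17, which were 36 to 39 with DMSO and 4 to 19 with dTAGV1, left 16.6% ± 2.41 and 43.7% ± 1.51. A larger share of ADAM17 reads thus lay outside the shared stretches with dTAGV1, while single poly(A) sites were not measured, and the annotation the authors counted with is not given in the sources used here. In the other 6 members that passed the filter the count irrespective of strand was 91.6% to 148% of the sense count. IAH1 itself fell by 0.55 on the log2 scale in sense counts (SE 0.14; edgeR, Benjamini-Hochberg adjusted p = 0.00125). The next tested gene beyond it is CPSF3, which encodes the target of JTE-607, and it fell by 0.40 on the log2 scale (SE 0.10; edgeR, Benjamini-Hochberg adjusted p = 0.00120). YWHAQ, the nearest tested gene on the other side of ADAM17, fell by 0.18 (edgeR, Benjamini-Hochberg adjusted p = 0.0403).

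**Figure D2:**
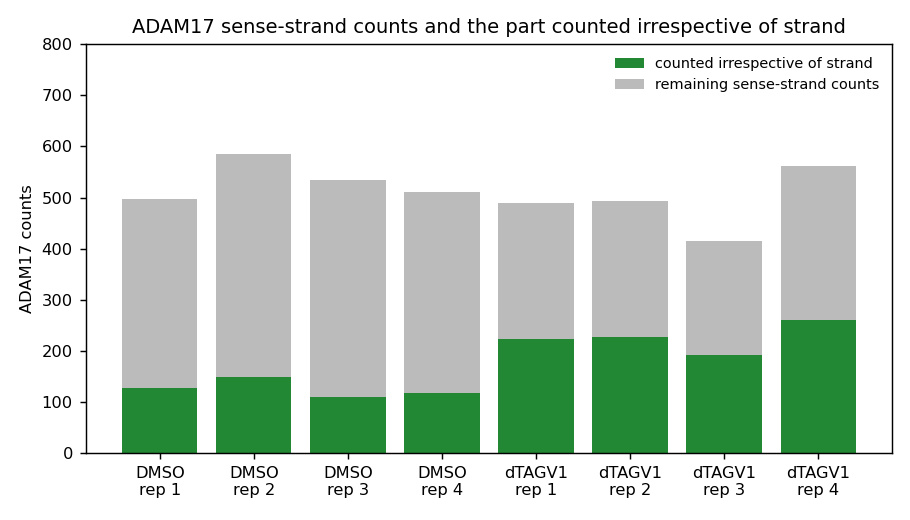
Counts of ADAM17 on its own strand in each library (full bar), with the count irrespective of strand drawn inside it (green), which can hold a few reads of the other strand. Full bars are 497 to 586 counts with DMSO and 415 to 561 with dTAGV1, and the green part is 110 to 150 counts with DMSO and 193 to 260 with dTAGV1.

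The annotated 3′ ends of the members are shown because CPSF73 and CFIm both work in the cleavage of 3′ ends. Whether either treatment acted at these particular ends was not tested. Each 30-base stretch is from the 3′ UTR in the last exon, on the strand of the gene, around the poly(A) signal (AATAAA or ATTAAA, in capitals) nearest to the most distal end of its protein-coding transcripts in GENCODE 29.
ADAM19 (chr5:157477320-157477349): tgttagtatttaATTAAAaatgaattgttt
ADAM10 (chr15:58588810-58588839): gctcaaattagaAATAAAatgggagactct
ADAM15 (chr1:155062738-155062767): ctgctcagttgcAATAAAcgtgacatcttg
ADAM17 (chr2:9488490-9488519): gatatctgcattAATAAAtactgtcgaaac
ADAM19 and ADAM23 carried ATTAAA, and ADAM28 had neither form in its last 50 bases. A signal of either form was in the last 50 bases of 74.3% of 19494 protein-coding genes. TGTA, the DNA form of the CFIm motif, was searched on the strand of the gene in the last 100 bases. It occurred 2 times in ADAM10, ADAM8 and ADAM23, 1 time in ADAM19, ADAM9, ADAM12, ADAM17 and ADAM22, and not in ADAM15 and ADAM28, where 51.1% of all genes held at least 1. The 3′ UTR at this end was 8740 bases in ADAM10, 3645 in ADAM19, 1691 in ADAM17, 1301 in ADAM9 and 273 in ADAM15. A match is a description of the letters, and reads at these ends were not resolved.

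The remaining members were at low levels. ADAM22, a receptor for LGI proteins in neurons, had 25, 46, 28 and 34 counts with DMSO and 25, 29, 35 and 36 with dTAGV1. Its log2 fold change was 0.03, with an approximate 95% interval of -0.40 to 0.45 (edgeR, Benjamini-Hochberg adjusted p = 0.927). ADAM8, a protease best known from leukocytes, had 7, 20, 9 and 8 counts with DMSO and 15, 5, 10 and 15 with dTAGV1. The approximate 95% interval of its log2 fold change ran from -0.59 to 0.87, so changes within that range are not excluded (edgeR, Benjamini-Hochberg adjusted p = 0.768). ADAM12, a protease of mesenchymal and placental cells, had 0 counts in all 8 libraries. ADAM23 had 4 counts in DMSO replicate 1 and 0 in the other 7 libraries, and ADAM28 had 1 count in DMSO replicate 4 and 0 elsewhere. These 3 genes did not pass the filter, and no fold change is given for them.

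The order of the levels differed between the groups. With DMSO it was ADAM15 (226 CPM), ADAM17 (136 CPM), ADAM19 (99.2 CPM), ADAM10 (88.0 CPM), ADAM9 (74.3 CPM), ADAM22 (8.45 CPM) and ADAM8 (2.78 CPM). Neighbours in this order did not overlap except ADAM19 with ADAM10 and ADAM10 with ADAM9. With dTAGV1 it was ADAM10 (277 CPM), ADAM17 (136 CPM), ADAM9 (115 CPM), ADAM15 (114 CPM), ADAM19 (11.2 CPM), ADAM22 (8.67 CPM) and ADAM8 (3.06 CPM). Here ADAM17 overlapped with ADAM9, ADAM9 with ADAM15, and ADAM19 with ADAM22.

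The sum over the 10 genes was similar in the groups, at 636 ± 25.1 CPM with DMSO and 665 ± 51.0 CPM with dTAGV1 (SD, n = 4 per group). Its make-up was not. ADAM10 gave 12.7% to 15.5% of the ADAM counts with DMSO and 39.5% to 45.2% with dTAGV1, while ADAM19 went from 14.3% to 18.0% down to 1.51% to 1.92%. ADAM15 went from 33.4% to 38.4% down to 14.8% to 19.9%. There were 0.709 to 1.02 ADAM10 reads for each ADAM19 read in the DMSO libraries and 22.3 to 28.2 in the dTAGV1 libraries. Shares of a sum depend on each other, and ADAM19 entered by its decrease, so they are given without a test.

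**Figure D3:**
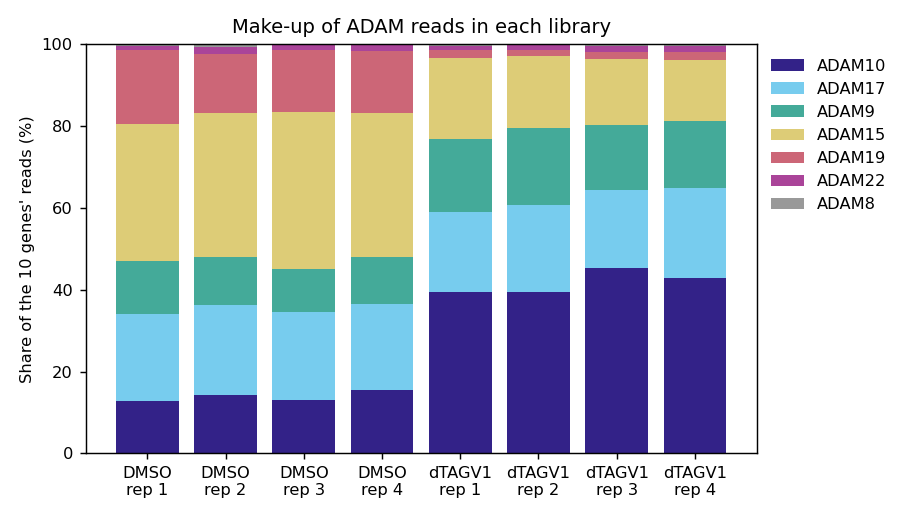
Share of each ADAM gene in the summed counts of the 10 genes, in percent, for each library. ADAM10 makes up 39.5% to 45.2% of the sum in the dTAGV1 libraries against 12.7% to 15.5% in the DMSO libraries, and the ADAM19 segment shrinks to under 2%.

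Across the 8 libraries the level of ADAM10 correlated with that of ADAM19 at a Pearson's r of -0.998 in log2 CPM, that of ADAM9 at -0.90 and that of ADAM15 at 0.93, while ADAM17, ADAM8 and ADAM22 were between -0.17 and 0.08. These values are a description over 8 libraries that fall into 2 groups, and the difference between the groups chose ADAM19. Of deviations from the group means, r with ADAM19 was -0.73 for ADAM10, 0.44 for ADAM9, 0.17 for ADAM15, 0.19 for ADAM17, 0.02 for ADAM8 and -0.84 for ADAM22. Of the 9247 of these genes that have a symbol, the 5 with the profile most like that of ADAM19 were RAB12, CPOX, FADS1, GOLM2 and SH3BP1, at r of 0.996 to 0.998. RAB12, a small GTPase, went from 91.4 to 27.5 CPM. CPOX, an enzyme of haem synthesis, went from 142 to 30.4 CPM, and FADS1, a fatty acid desaturase, from 122 to 46.1 CPM. GOLM2 went from 83.3 to 47.5 CPM and SH3BP1 from 50.8 to 15.1 CPM. Their fold changes were all smaller than that of ADAM19, from -2.22 for CPOX to -0.81 for GOLM2 on the log2 scale.

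Genes that mature and carry the proteases were measured next. All 13 genes of this list passed the filter, of which 6 fell, 2 rose and 5 were not called, a count near the 57.9% of all tested genes that were called. The median log2 fold change was -0.26. Of the 6 TspanC8 tetraspanins, the partners of ADAM10, 4 fell and 1 rose. TSPAN5, the most abundant, had counts of 1609, 1650, 1586 and 1722 with DMSO and 837, 893, 910 and 1032 with dTAGV1, without overlap. It fell from 422 ± 17.4 to 255 ± 16.6 CPM (SD, n = 4 per group), with a log2 fold change at -0.73 ± 0.07 SE (edgeR, Benjamini-Hochberg adjusted p = 3.07e-09). TSPAN17 fell by 0.89, TSPAN10 by 0.75 and TSPAN14 by 0.26 on the log2 scale (edgeR, Benjamini-Hochberg adjusted p of 4.68e-05, 0.00196 and 0.00853), and the groups overlapped for TSPAN14. TSPAN15, known to direct ADAM10 towards N-cadherin and betacellulin, rose from 16.1 ± 4.00 to 31.3 ± 4.06 CPM (SD, n = 4 per group), with a log2 fold change at 0.97 (edgeR, Benjamini-Hochberg adjusted p = 1.38e-05). TSPAN33 was not called, at 6.97 and 7.52 CPM.

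RHBDF2 and FRMD8, partners of ADAM17, fell, while ADAM17 itself was not called. RHBDF2 encodes iRhom2, and its counts were 234, 217, 206 and 292 with DMSO and 95, 145, 112 and 140 with dTAGV1. It fell by 0.83 on the log2 scale ± 0.13 SE (edgeR, Benjamini-Hochberg adjusted p = 9.02e-06). FRMD8, which binds iRhom proteins and stabilises ADAM17 at the surface, had counts of 280, 295, 308 and 293 with DMSO and 113, 137, 131 and 166 with dTAGV1. FRMD8 fell from 75.6 ± 4.96 to 37.8 ± 4.04 CPM (SD, n = 4 per group), with a log2 fold change at -0.997 (edgeR, Benjamini-Hochberg adjusted p = 8.15e-09). RHBDF1, which encodes iRhom1, was at 15.0 and 18.2 CPM and not called. FURIN, the convertase that removes ADAM prodomains, was at 56.0 and 57.8 CPM, with a log2 fold change of 0.05 (edgeR, Benjamini-Hochberg adjusted p = 0.675). PCSK5, a further convertase, was called with a log2 fold change of 0.44 (edgeR, Benjamini-Hochberg adjusted p = 0.0338). That call was lost in several fits, among them library-size scaling (0.37), DESeq2 (0.42) and the fits without dTAGV1 replicate 1 or 4 (0.34 and 0.35) or without DMSO replicate 2, 3 or 4 (0.45, 0.43 and 0.36).

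**Figure D4:**
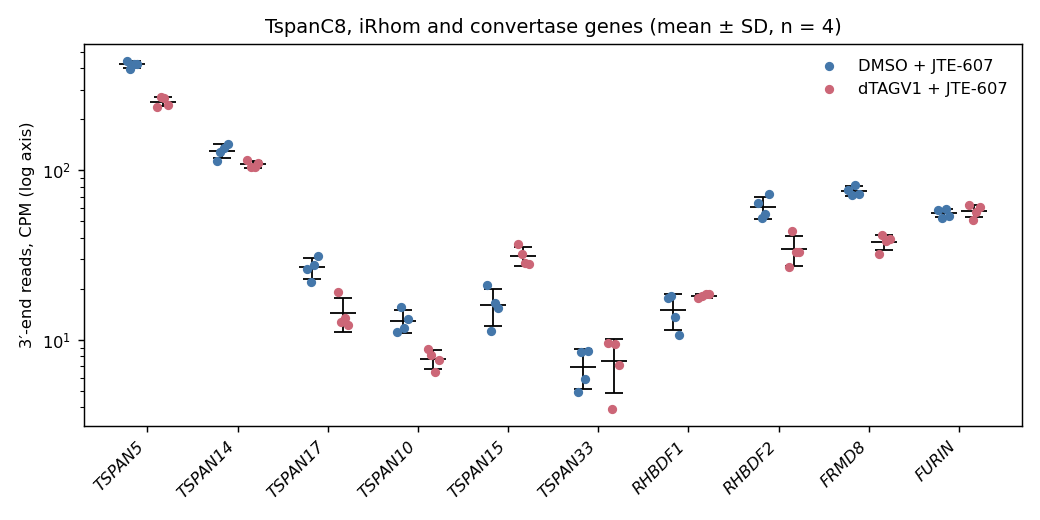
Level of 10 genes that mature or escort ADAM10 and ADAM17, in CPM on a log axis, in the 4 libraries of each group (points) with mean and SD. TSPAN5, TSPAN17, TSPAN10, RHBDF2 and FRMD8 sit lower in every dTAGV1 library, TSPAN15 sits higher, and FURIN overlaps.

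Ligands of the EGF receptor family are shed by ADAM17 or ADAM10. Of 11 such genes 7 passed the filter, 5 rose, 1 fell and 1 was not called, beside 29.4% called higher and 28.5% lower of all tested genes. The median log2 fold change was 0.46. AREG, the most abundant, had counts of 3959, 4210, 4059 and 4342 with DMSO and 9553, 9850, 10918 and 12257 with dTAGV1. It rose from 1063 ± 32.4 to 2950 ± 210.5 CPM (SD, n = 4 per group), with a log2 fold change at 1.47 ± 0.07 SE (edgeR, Benjamini-Hochberg adjusted p = 7.31e-15). TGFA rose by a log2 fold change of 0.50 and EREG by 0.35 (edgeR, Benjamini-Hochberg adjusted p of 2.14e-05 and 0.000172). HBEGF was called at 0.46 (edgeR, Benjamini-Hochberg adjusted p = 0.0204), but the groups overlapped, with 107 to 110 counts with DMSO and 99 to 201 with dTAGV1. Without dTAGV1 replicate 1 its log2 fold change was 0.21 and the call was lost, as it was without DMSO replicate 2 or 4 (0.43 and 0.45).

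BTC, the betacellulin gene, went against the other ligands and is named after its values were seen. It had 37, 44, 39 and 36 counts with DMSO and 5, 0, 7 and 5 with dTAGV1, a log2 fold change of -3.05 ± 0.36 SE (edgeR, Benjamini-Hochberg adjusted p = 7.31e-08). BTC passed the filter through its DMSO libraries alone. Among the receptors, ERBB2 and EGFR were called lower, at log2 fold changes of -0.50 and -0.26 (edgeR, Benjamini-Hochberg adjusted p of 0.0222 and 0.0426), ERBB3 was not called and ERBB4 did not pass the filter. Over all tested genes 28.5% were called lower and 57.9% were called in all. The EGFR groups overlapped. DESeq2 called neither, with an ERBB2 log2 fold change of -0.52 and an EGFR log2 fold change of -0.28. The EGFR call was also lost with limma-voom (-0.25) and without DMSO replicate 1 or 4 (-0.19 each) or dTAGV1 replicate 2, 3 or 4 (-0.27, -0.24 and -0.25). The ERBB2 call was lost with counts irrespective of strand (-0.15) and without DMSO replicate 1 or 3 (-0.46 and -0.48) or dTAGV1 replicate 2 or 4 (-0.45 and -0.43).

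Notch receptors are cut by ADAM10 after a ligand binds, and gamma-secretase then cuts the rest within the membrane. Of 9 Notch receptor and ligand genes 5 passed the filter, 2 rose, 2 fell and 1 was not called (57.9% called over all tested genes), with a median of 0.21. NOTCH1 had 99, 117, 86 and 124 counts with DMSO and 202, 179, 170 and 186 with dTAGV1, a log2 fold change of 0.91 (edgeR, Benjamini-Hochberg adjusted p = 5.13e-07). NOTCH2 rose by a log2 fold change of 0.77 (edgeR, Benjamini-Hochberg adjusted p = 5.51e-07). JAG2, a Notch ligand, fell from 107 ± 8.79 to 45.3 ± 2.99 CPM (SD, n = 4 per group), and its log2 fold change was -1.25 (edgeR, Benjamini-Hochberg adjusted p = 3.70e-11). NOTCH3, at low levels and named after its values were seen, had 46 to 55 counts with DMSO and 7 to 19 with dTAGV1, a log2 fold change of -2.03 (edgeR, Benjamini-Hochberg adjusted p = 1.04e-07).

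Of the 6 gamma-secretase genes, 2 rose, 1 fell and 3 were not called, with a median of -0.01, and 3 called of 6 is no more than the 57.9% over all tested genes. NCSTN, which encodes nicastrin, rose from 50.4 ± 5.23 to 104 ± 10.6 CPM (SD, n = 4 per group), with a log2 fold change at 1.05 (edgeR, Benjamini-Hochberg adjusted p = 2.19e-09). APH1A, a scaffold subunit, fell by 0.38 on the log2 scale (edgeR, Benjamini-Hochberg adjusted p = 0.00221).

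Other surface proteins cut by ADAM10 or ADAM17 made up a list of 29 genes. Of these 23 passed the filter, 13 rose, 5 fell and 5 were not called, where 29.4% of all tested genes rose and 28.5% fell, with a median log2 fold change of 0.46 beside 0.01 for all tested genes. CD44, the hyaluronan receptor, had counts of 2548, 2315, 2112 and 2326 with DMSO and 5026, 4931, 4876 and 5841 with dTAGV1, a log2 fold change of 1.26 (edgeR, Benjamini-Hochberg adjusted p = 4.06e-13). SDC4, a syndecan, and TNFRSF1A, a receptor for tumour necrosis factor, rose by log2 fold changes of 1.22 and 1.12 (edgeR, Benjamini-Hochberg adjusted p of 8.74e-12 and 2.45e-10). MET, the receptor of hepatocyte growth factor, rose by 0.76 and APP, the amyloid precursor, by 0.41 (edgeR, Benjamini-Hochberg adjusted p of 6.32e-10 and 1.69e-05).

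The decreases of that list were L1CAM, AXL, TGFBR1, PRNP and SDC1. L1CAM, a neural adhesion molecule, had counts of 151, 198, 183 and 195 with DMSO and 88, 48, 60 and 60 with dTAGV1, a log2 fold change of -1.39 (edgeR, Benjamini-Hochberg adjusted p = 1.43e-08). AXL, a receptor tyrosine kinase, had a log2 fold change of -1.001 and TGFBR1, a receptor of TGF-beta, one of -0.98 (edgeR, Benjamini-Hochberg adjusted p of 2.18e-08 and 1.10e-05). CDH1, which encodes E-cadherin, was at 57.9 ± 5.30 and 58.4 ± 5.96 CPM (SD, n = 4 per group), with an approximate 95% interval of the log2 fold change of -0.18 to 0.22. TNF, CX3CL1 and CDH2 had 0 counts in all libraries.

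**Figure D5:**
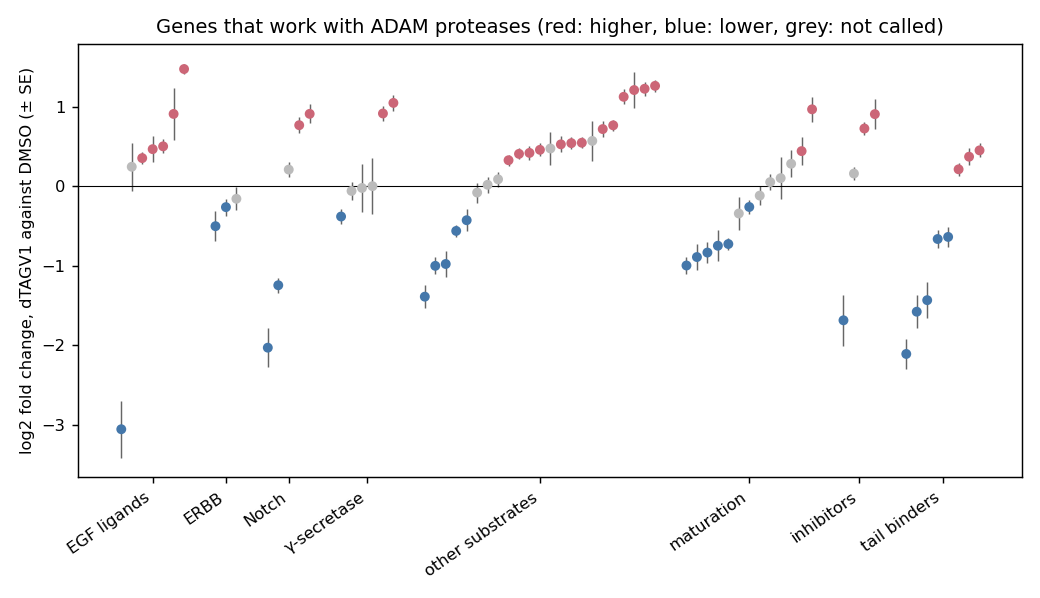
Log2 fold change with its standard error for every tested gene of 8 lists that work with ADAM proteases, sorted within each list. Red genes were called higher, blue genes lower and grey genes not called, and BTC is the lowest point at -3.05.

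Of 5 inhibitor genes, 4 passed the filter, 2 rose, 1 fell and 1 was not called (57.9% called over all tested genes), with a median of 0.44. TIMP1 rose from 197 ± 6.21 to 326 ± 32.2 CPM (SD, n = 4 per group), with a log2 fold change at 0.72 (edgeR, Benjamini-Hochberg adjusted p = 1.22e-08). RECK, a membrane-anchored inhibitor of metalloproteases, rose by 0.90 (edgeR, Benjamini-Hochberg adjusted p = 0.000265). TIMP2 was at 224 and 249.5 CPM and not called (edgeR, Benjamini-Hochberg adjusted p = 0.0939). TIMP3, an inhibitor of ADAM17, had 37, 37, 33 and 23 counts with DMSO and 14, 12, 6 and 5 with dTAGV1, a log2 fold change of -1.69 (edgeR, Benjamini-Hochberg adjusted p = 6.42e-05), and it is named after its values were seen.

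Of 12 genes for proteins that bind ADAM tails or ADAM22 and ADAM23, 8 passed the filter, of which 5 fell and 3 rose, with a median of -0.65. Of all tested genes 28.5% fell and 29.4% rose. SH3PXD2A encodes the scaffold TKS5, which binds the tails of ADAM19, ADAM12 and ADAM15. It had counts of 53, 79, 75 and 74 with DMSO and 29, 17, 14 and 27 with dTAGV1, a log2 fold change of -1.58 (edgeR, Benjamini-Hochberg adjusted p = 4.32e-07). PACSIN3, which binds ADAM12, fell by 2.11 and MAD2L1, a spindle checkpoint protein that binds ADAM17, by 1.43 on the log2 scale (edgeR, Benjamini-Hochberg adjusted p of 9.30e-10 and 0.000158). SNX9, a sorting nexin that binds ADAM9 and ADAM15, rose by 0.45 (edgeR, Benjamini-Hochberg adjusted p = 9.03e-05). PACSIN2 was called at 0.37 and DLG1 at 0.21 (edgeR, Benjamini-Hochberg adjusted p of 0.00432 and 0.0302), with overlapping groups for each. The call of DLG1 was lost in 9 of 16 other fits, among them those without DMSO replicate 2, 3 or 4 (0.21, 0.15 and 0.20) or dTAGV1 replicate 2 or 4 (0.17 and 0.20). All 4 LGI genes stayed below the filter.

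Other metalloproteases were sparsely detected. Among 11 further ADAM genes only ADAM20, best known from testis, passed the filter. It had 8, 8, 4 and 12 counts with DMSO and 29, 26, 38 and 34 with dTAGV1, a log2 fold change of 2.09 ± 0.29 SE (edgeR, Benjamini-Hochberg adjusted p = 1.43e-06). Of 19 secreted ADAMTS genes 5 passed the filter, with ADAMTS6 and ADAMTS16 higher, ADAMTS7 and ADAMTS14 lower and ADAMTS2 not called. Over all tested genes 57.9% were called. Counts were low, with sums per group of 30 (DMSO) and 64 (dTAGV1) for ADAMTS6 and of 15 and 69 for ADAMTS16. ADAMTS14, which processes procollagen, had 44, 33, 30 and 32 counts with DMSO and 2, 1, 2 and 4 with dTAGV1, a log2 fold change of -3.78 ± 0.37 SE (edgeR, Benjamini-Hochberg adjusted p = 4.43e-09). ADAMTS14 passed the filter through its DMSO libraries, and ADAM20, ADAMTS6 and ADAMTS16 through their dTAGV1 libraries. Passing was thus tied to the group where each is high. Of 22 matrix metalloproteinase genes 2 passed the filter, MMP14 and MMP15, and edgeR called neither (lowest Benjamini-Hochberg adjusted p = 0.103, with 0 of 2 at an unadjusted p under 0.05). DESeq2 was run without that filter, on all genes of the list, and called 2 of them. MMP1, a collagenase below the filter, had 0, 0, 3 and 0 counts with DMSO and 43, 11, 6 and 22 with dTAGV1. MMP10 had 0, 0, 3 and 0 with DMSO and 17, 7, 6 and 5 with dTAGV1, so that every dTAGV1 library lay above every DMSO library for each. These genes are named after their values were seen.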

How the data were processed

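The deposited values are read counts per gene from 3′-end libraries (Lexogen QuantSeq forward kit) of 8 samples, 1 table each. The submitters' processing notes name FastQC, fastp, STAR, HTSeq and DESeq2 and the build GRCh38, while versions and the annotation are not given in the sources used here. Counts on the strand of the gene (column 3) were used. The 4 totals of reads given to no gene held 56.7% to 62.8% of reads and stayed out of library sizes. Whether PCR copies were removed is unknown, so intervals cover counting and replicate error only as these libraries show it. All listed symbols matched 1 identifier each in the table of names.

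edgeR 4.0.16 in R 4.3.3 was run on all 8 libraries with filterByExpr, TMM scaling, robust quasi-likelihood fits and Benjamini-Hochberg adjustment over all tested genes, at a threshold of 0.05. The filter asks for about 10 counts in as many libraries as a group holds, so the libraries of a single group can meet it. Standard errors are the absolute log2 fold change over the square root of F, and approximate 95% intervals are normal ones. The code was also run on simulated counts in which few genes changed and all genes had the same dispersion. That setting is unlike these data, so the run gives no error rate for them. Opposite-strand counts were fitted with the same edgeR steps. Shared exon bases were read from the comprehensive GENCODE 29 annotation, and sequences and 3′ ends from its basic set. Alternatives used DESeq2 1.42.0 and limma-voom (limma 3.58.1), other scalings and filters, counts irrespective of strand, a replicate term, and leaving out each library.

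Members and lists were chosen with earlier results of these data known. All members are named. Of each list, up to 3 increases and 3 decreases with a mean of at least 10 CPM are named, and further list genes were named after their values were seen. One gene that this rule picks is not reported here. Replicate pairs of a group differed by more than sampling noise (chi-square over degrees of freedom 1.89 to 5.62).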

Additional observations from a re-analysis of the deposited data

Results flagged for a closer look

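Across 49 genes and both groups, 7 values, each of 1 gene in 1 library, were flagged. Each lay far from the other 3 values of its group, by a gap that took most of the range of the group. Several fell in the same library. Chance gives about 1 in 20 such cases, and 98 groups were examined. ADAM8 was at 4.82 CPM in DMSO replicate 2, against 1.91 to 2.40 CPM in the others, on 7 to 20 counts. ADAM20 was at 11.2 CPM in dTAGV1 replicate 3, against 7.85 to 8.22 CPM. ADAMTS14 was at 12.02 CPM in DMSO replicate 1, against 7.91 to 8.00 CPM. CD44 was at 696 CPM and L1CAM at 41.3 CPM in DMSO replicate 1, against 558 to 575 CPM and 47.8 to 48.8 CPM. AREG was at 1015 CPM in DMSO replicate 2, against 1074 to 1083 CPM. RECK was at 36.3 CPM in dTAGV1 replicate 1, against 21.5 to 22.7 CPM. The calls of the tested genes among these, and the lack of one for ADAM8, were the same without the library in question. The log2 fold change of ADAM8 was 0.55 without it.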

How the results depend on the processing

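For 64 results, 1000 alternative values were computed. Of these, 934 left the call or count as it was (counts to within 1.5 times), 41 lost a call, 24 counts moved further and 1 value changed direction with a call. Among the 934 are 10 values of ADAM8, ADAM17 and ADAM22 that changed sign without a call. ADAM10 and ADAM9 were called higher and ADAM15 lower in every alternative run. ADAM17 turned to 0.92 with counts irrespective of strand, since that count leaves out stretches that other genes share. With a mean of at least 100 counts, fewer genes were tested, and 4120 were called in all, 0 further ADAM genes, 0 ADAMTS genes, 4 maturation genes, 1 inhibitor and 1 ERBB receptor. Counts irrespective of strand called 2 further ADAM genes and 1 ERBB receptor. Among matrix metalloproteinases 3 were called by edgeR without a filter and 2 by DESeq2, which was also run without that filter. ERBB receptors called numbered 0 by DESeq2 and 1 by limma-voom. The cause was not tested.

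Leaving out each library gave 0 to 1 called matrix metalloproteinases and 0 to 2 ERBB receptors. None of the ERBB receptors was called without DMSO replicate 1 or dTAGV1 replicate 2 or 4. The difference in the ADAM17 share ran from 21.4 to 23.1 percentage points, where the smallest exact permutation p is 0.0571. Over all genes 6861 to 7232 were called. The labels give both groups replicate numbers 1 to 4. With the replicate number as a block, genes called over the whole table numbered 7434, with 2 ADAM members higher and 1 lower. Same-numbered libraries deviated together at correlations of 0.131, -0.0176, 0.0232 and 0.0340, so the numbers were not taken as pairs. For ADAM8 and ADAM22 low counts limit what could be seen.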

Other observations

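ADAM12 had 0 sense counts, but 22 reads on its opposite strand summed over the DMSO libraries and 12 over the dTAGV1 libraries. FANK1, on the other strand at a distance of 2789 bases, had 298 and 164 counts and a log2 fold change of -0.75 (standard error 0.17; edgeR, Benjamini-Hochberg adjusted p = 0.000641). For ADAM10, which shares 136 exon bases with the gene AC018904.1 on the other strand in GENCODE 29, 2734 bases before its end, the counts irrespective of strand fell short of the sense counts by 8, 19, 15 and 32 with DMSO and by 14, 5, 5 and 10 with dTAGV1. They were 91.6% to 97.3% of the sense counts with DMSO and 98.6% to 99.5% with dTAGV1, without overlap between the groups.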
